A study of Mus musculus with 3 samples.

Results

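The medulloblastoma described here arose in a mouse given 0.2 Gy of X-rays, and it was 1 of 3 tumours in the series. It was picked by its irradiation label alone. Of the 14112 probes in the deposited table, 14098 had a value for this tumour. The animal was a female Ptch1+/- mouse of C3B6F1 background irradiated on postnatal day 1. Genomic DNA of the whole tumour (Cy5) was hybridised against ear DNA of the same mouse (Cy3) on 1 Agilent oligonucleotide array. The other tumours, from female mice of the same genotype and background irradiated on the same postnatal day with 0.1 or 1.5 Gy, were each set against their own ear DNA and serve as background. No unirradiated mouse was analysed here. Each dose was represented by 1 tumour on 1 array, so the ratios carry no replicate error and an effect of dose cannot be told apart from those of the mouse or the array.

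Ptch1 encodes the receptor that holds Hedgehog signalling in check. When it is lost, the precursors of cerebellar granule neurons can keep dividing, and mice with a single working copy develop medulloblastoma. In such tumours the remaining normal copy is often lost as well, either by a deletion, which removes DNA, or by recombination, which replaces the normal copy with the disrupted one and leaves the amount of DNA as it was. Array comparative genomic hybridisation sees only the first of these routes, because the ratio of tumour to ear signal at a probe follows the relative amount of its DNA. The germline disruption of Ptch1 is present in both DNAs of a mouse and so does not by itself move the ratio. Gains of whole chromosomes or of segments raise the ratio at every probe they cover.

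Ratios are given as log2 of tumour over ear after each array was centred on its median, so that 0 means equal signal. The log base is not stated by the submitters and was read as log2 from the values. On that scale 1 copy in place of 2 in every cell would give -1, 3 copies would give 0.58, and 4 copies would give 1. If the values were log10 ratios, the levels for 1 and 3 copies would be -0.30 and 0.18. Nothing used here pairs the probe numbers with positions, genes or sequences, so probes are described as groups, and whether any of them lies at Ptch1 was not analysed here. How much of the genome a share of the probes covers is likewise unknown here. Whole-tumour DNA mixes all cells of the sample, so a change in every cell and a larger change in part of the cells cannot be told apart.

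Most probes gave nearly the same signal from tumour as from ear DNA, and a small fraction of the probes formed a separate group on each side. The middle 50% of ratios lay between -0.085 and 0.079, and the robust SD was 0.12. The robust SD was 0.15 and 0.11 on the 0.1 and 1.5 Gy arrays. The lowest ratio was -1.13 and the highest 1.10. At or below -0.5 there were 42 probes, 0.298% of those measured, and at or above 0.5 there were 172, or 1.22%. For the tumours given 0.1 and 1.5 Gy the shares were 0.291% and 0.263% on the low side and 0.723% and 0.0497% on the high side. The shares of low probes were thus close to each other in all 3 tumours, and those of high probes were not. What differed on the low side was how the probes were spaced along the ratio axis.

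**Figure D1:**
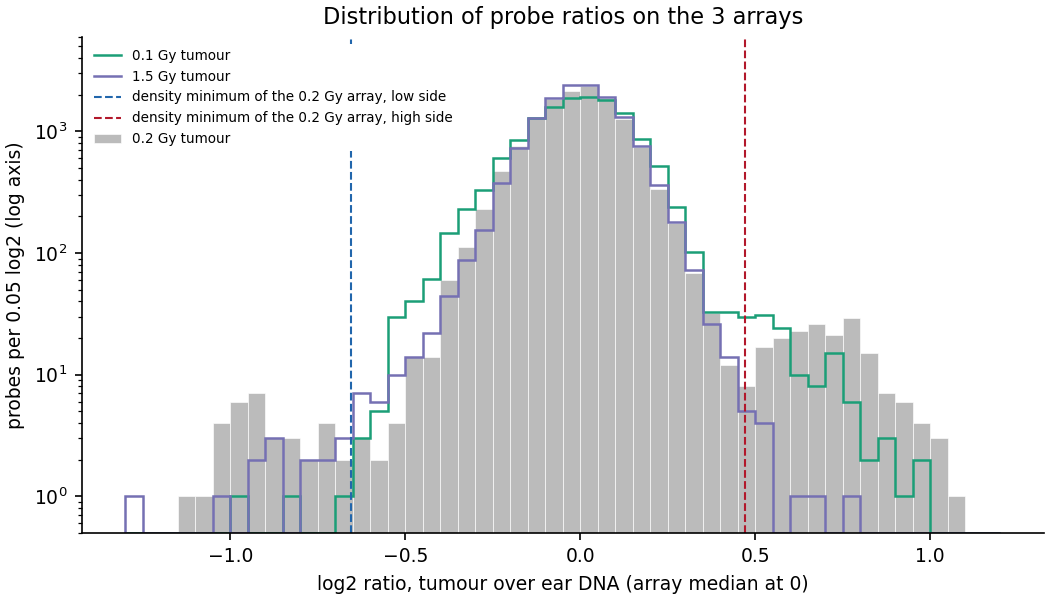
Number of probes (log axis) per 0.05 of log2 ratio of tumour over ear DNA, as grey bars for the 0.2 Gy tumour and as outlines for the 0.1 and 1.5 Gy tumours. The dashed lines at -0.66 and 0.47 mark the minima that set the low and the high group of the 0.2 Gy tumour apart from its main peak.

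A low group of 33 probes and a high group of 179 were set apart where a smoothed density of the 0.2 Gy ratios (Gaussian, bandwidth 0.04) passed through a minimum more than 0.3 from the median. They make up 0.234% and 1.27% of the measured probes. On this array the low group ran from -1.13 to -0.68 with a median of -0.92, and the high group from 0.47 to 1.10 with a median of 0.69. These values chose the groups, so they are a description. The innermost low member lay at -0.68 and the nearest probe outside at -0.62. On the high side the limit lay in a minimum without an empty gap, with the innermost member at 0.472 and the nearest probe outside at 0.464. The counts there were 12 probes from 0.40 to 0.45, 8 from 0.45 to 0.50 and 17 from 0.50 to 0.55. Past the same limits the 0.1 Gy array had 3 low and 119 high probes and the 1.5 Gy array 13 and 10, and neither met the rule for a separate group.

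The low group was far below 0 on the 0.2 Gy array alone. Its 33 probes had a mean of -0.89 ± 0.11 (SD over probes), or 0.538 times the ear signal on the log2 reading. On the arrays that did not choose them, they lay mostly within the range of the other probes, with a slight lean to the low side. At 0.1 Gy 21 of them were below 0 and 12 above, and at 1.5 Gy 24 and 9. The probes in neither group split into 7011 and 6851 at 0.1 Gy and into 7001 and 6861 at 1.5 Gy. At 0.1 Gy they ranged from -0.27 to 0.23 with a median of -0.057, and at 1.5 Gy from -0.36 to 0.21 with a median of -0.069. Ratios within 0.2 of 0 were found for 30 of the 33 at 0.1 Gy and for 27 at 1.5 Gy, that is 90.9% and 81.8%, against 83.3% and 90.4% of the probes in neither group. None of the 33 reached -0.5 at 0.1 Gy (0, where 0.291% of all probes did) or at 1.5 Gy (0, where 0.263% did). Only 1 of them, on the 1.5 Gy array, fell below the 1st percentile of the other probes of those arrays. A set of 33 probes would hold few such values in any case, so these counts say little. The values did not overlap, since the highest member at 0.2 Gy (-0.68) lay below the lowest at 0.1 Gy (-0.27) and at 1.5 Gy (-0.36). Probe by probe the 0.2 Gy ratio was lower by at least 0.58 than that at 0.1 Gy and by at least 0.51 than that at 1.5 Gy. The choice of members by a low 0.2 Gy ratio favours both these differences and the lack of overlap. Among probes in neither group, differences of 0.5 or more in size were found at 0.159% against 0.1 Gy and 0.325% against 1.5 Gy. Those probes were not chosen for a low 0.2 Gy ratio.

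The SD of the low members was 0.11 on the 0.2 Gy array, where the limit of the group cuts their range, and 0.12 on each of the other arrays. Across the 33 probes Pearson's r of the 0.2 Gy ratio was 0.25 with the 0.1 Gy array and 0.45 with the 1.5 Gy array (Spearman's rho = 0.21 and 0.34). Over the 179 high members r was 0.60 and 0.45, and over the 13863 probes in neither group it was 0.64 and 0.61. The limits narrow the range of the 0.2 Gy ratio in both groups, so these values are not compared. They are correlations across probes that share arrays, and probes are not independent replicates.

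The probe with the lowest ratio, feature number 10332, stood at -1.13 in the 0.2 Gy tumour, with -0.12 at 0.1 Gy and -0.28 at 1.5 Gy. The next, feature number 8207, stood at -1.06, -0.015 and -0.060 in the same order. Both were thus far below their own ratios in the other tumours.

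The high group was shared with the 0.1 Gy tumour and was faint in the 1.5 Gy tumour. Its 179 probes averaged 0.70 ± 0.13 (SD over probes) at 0.2 Gy, or 1.63 times the ear signal on the log2 reading. At 0.1 Gy they ranged from -0.083 to 0.97 around a median of 0.51, and 159 of them (88.8%) lay above the 99th percentile of the probes in neither group. At 1.5 Gy they ranged from -0.29 to 0.63 around a median of 0.17, and 31 of them (17.3%) did so. The share of probes at or above 0.5 in these members was 55.3% at 0.1 Gy, against 0.723% of all probes there, and 1.12% at 1.5 Gy, against 0.0497%. The arrays also correlate among probes in neither group, so members chosen for a high ratio on 1 array are raised on the others to some extent by that choice.

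**Figure D2:**
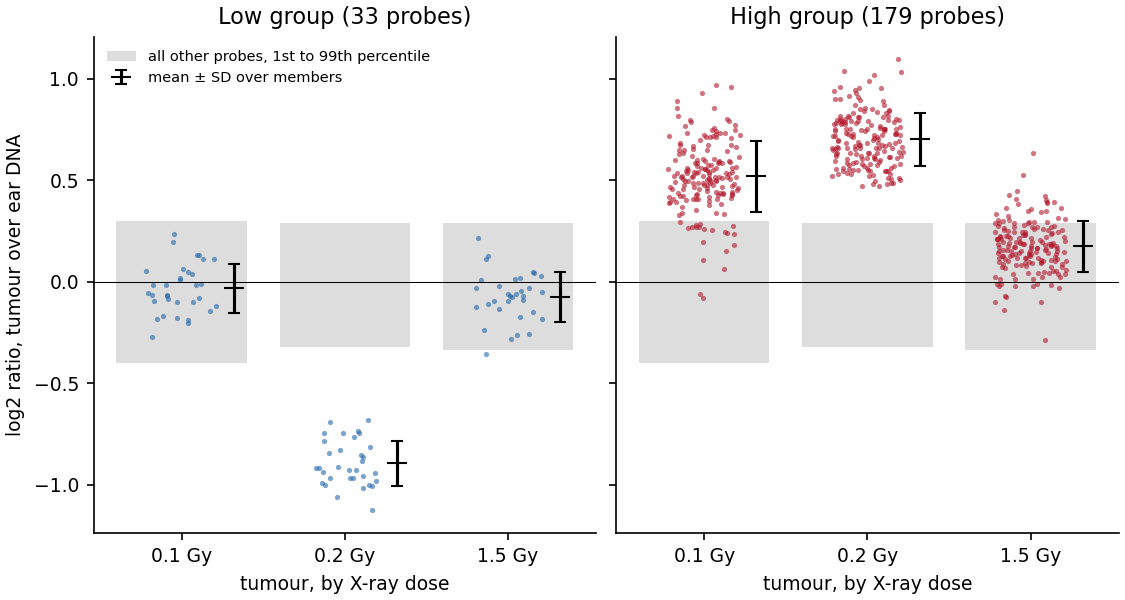
Log2 ratio of each member of the low group (left, 33 probes) and of the high group (right, 179 probes) in the 3 tumours, with the mean and SD over members in black and the 1st to 99th percentile of all other probes as a grey band. The low members all lie below the band at 0.2 Gy, and 1 of them just below it at 1.5 Gy. The high members lie above it at 0.2 Gy, as do 159 of 179 at 0.1 Gy and 31 at 1.5 Gy.

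Within the high group, most probes had a larger ratio at 0.2 Gy than at 0.1 Gy. The median difference was 0.16 and the range -0.13 to 0.76, with 9 of the 179 probes differing by 0.5 or more. The choice of members by a high 0.2 Gy ratio favours such a difference. The 102 probes chosen instead by a ratio of at least 0.5 at 0.1 Gy, a choice that favours the 0.1 Gy tumour, had means of 0.63 at 0.1 Gy and 0.75 at 0.2 Gy. Against the 1.5 Gy tumour the median difference was 0.53 and the range 0.063 to 0.95, with 109 probes (60.9%) differing by 0.5 or more. Among probes in neither group a difference of that size was found at 0.159% and 0.325% in the same order, but those probes were not chosen for a high 0.2 Gy ratio.

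The highest probe on the array, feature number 35, stood at 1.10 in the 0.2 Gy tumour, with 0.89 at 0.1 Gy and 0.41 at 1.5 Gy. Feature number 8165 followed with 1.04, 0.96 and 0.45. Both probes were thus high in all 3 tumours, in the same order as the group's medians.

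Not all members followed the 0.1 Gy tumour. In that tumour 7 of the 179 lay below 0.2, from -0.083 to 0.19 with a median of 0.10. The same 7 ranged from 0.47 to 0.96 at 0.2 Gy, with a median of 0.55, and from -0.074 to 0.33 at 1.5 Gy. In the 1.5 Gy tumour 24 members reached 0.3 or more. Their medians of 0.84 at 0.2 Gy and 0.58 at 0.1 Gy were above those of the whole group. The 14 members below 0 at 1.5 Gy had medians of 0.55 and 0.41 on the same arrays, below those of the whole group.

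**Figure D3:**
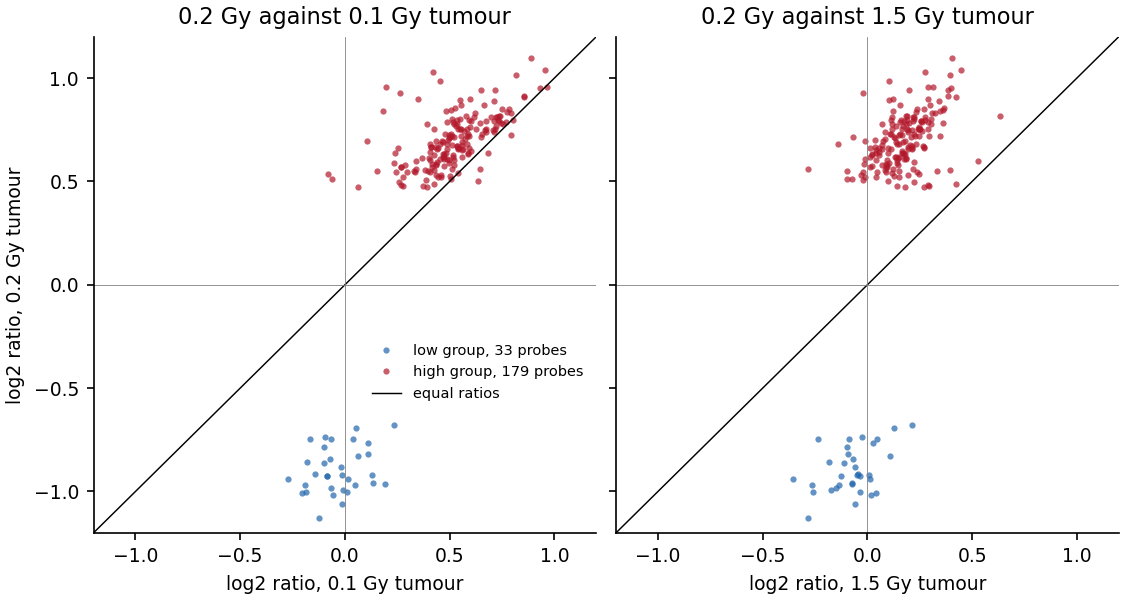
Log2 ratio of each member of both groups in the 0.2 Gy tumour (vertical axis) against the 0.1 Gy tumour (left) and the 1.5 Gy tumour (right), with the line of equal ratios. All 33 low members lie below the line in both panels, and of the 179 high members 173 lie above it on the left and 179 on the right.

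The relation between the arrays changed around both limits, and it did so for both other arrays. When the 14075 probes with a value on all 3 arrays were sorted into bins of 0.1 by their 0.2 Gy ratio, the mean of the other tumours followed the ratio smoothly in between. From the bin of -0.5 to -0.4 (27 probes) to the bin of 0.4 to 0.5 (20 probes, 7 of them in the high group), the 0.1 Gy mean went from -0.28 ± 0.15 to 0.24 ± 0.16 and the 1.5 Gy mean from -0.25 ± 0.12 to 0.21 ± 0.14 (SD over probes). Below the low limit the means returned to near 0, at -0.034 and -0.075 for the low group. Each 0.1 bin of that range held 13 probes or fewer, so the group is given as a whole. Probes moderately low in the 0.2 Gy tumour were therefore on average also low elsewhere, and the lowest were much less so.

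On the high side the other tumours parted. In the bin of 0.5 to 0.6 (37 probes) the 0.1 Gy mean rose to 0.38 ± 0.15, while the 1.5 Gy mean dropped to 0.097 ± 0.15 (SD over probes). In the bin of 0.7 to 0.8 (50 probes) they were 0.60 ± 0.10 and 0.19 ± 0.081. The 1.5 Gy tumour thus had a higher mean ratio among the 99 probes at 0.3 to 0.4 in the 0.2 Gy tumour, at 0.20 ± 0.14, than among the 37 at 0.5 to 0.6, although the SDs over probes overlap. For the 0.1 Gy tumour the successive bin means were 0.14, 0.19 and 0.24 from 0.2 to 0.5. From 0.5 to 0.8 they were 0.38, 0.48 and 0.60, a rise in larger steps, before 0.63 in the bin of 0.8 to 0.9.

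**Figure D4:**
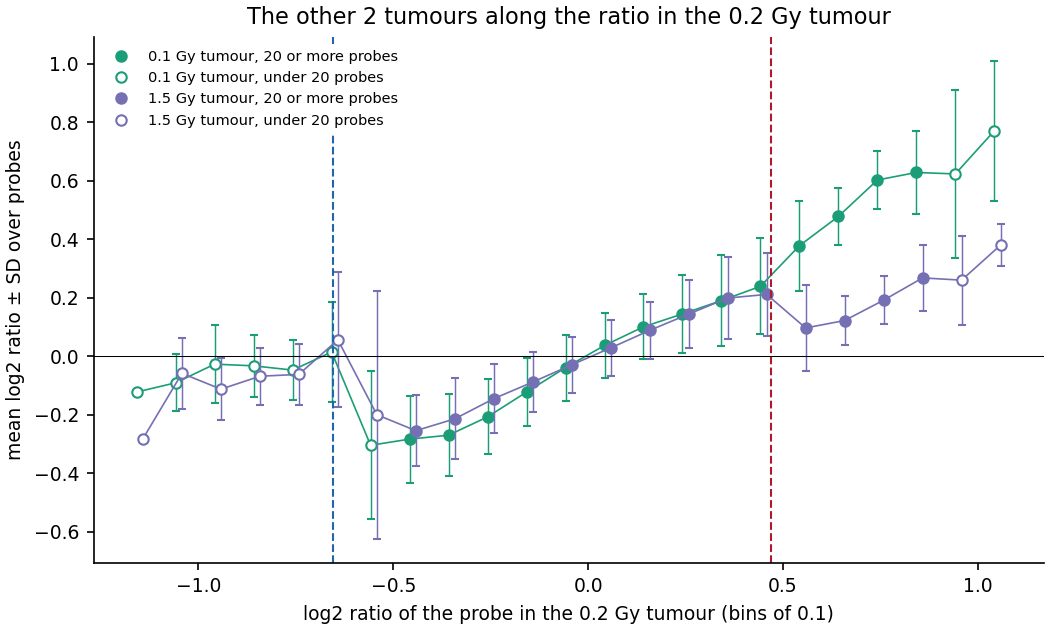
Mean log2 ratio ± SD over probes in the 0.1 and 1.5 Gy tumours, for probes binned by their log2 ratio in the 0.2 Gy tumour (bins of 0.1). Filled points stand for bins of 20 or more probes, open points for thinner bins, and dashed lines for the limits of the groups. Both curves rise together over the filled bins between the limits and part right of the high limit. Left of the low limit they lie nearer 0, except at the lowest bin, whose 1 probe stood at -0.28 at 1.5 Gy.

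A least-squares line fitted on the probes in neither group gave the 0.2 Gy ratio predicted from the other 2 arrays. It predicted -0.044 for the low group and 0.27 for the high group. The remainder was -0.85 ± 0.11 for the low group, from -1.03 to -0.58, and 0.43 ± 0.099 for the high group, from 0.14 to 0.83 (SD over probes). For the probes in neither group the SD of the remainder was 0.085. The high group's remainder was thus about 0.27 below its measured mean, whereas the low group's hardly moved. The slopes were 0.39 on the 0.1 Gy array and 0.41 on the 1.5 Gy array, so only part of the ratio in either tumour was taken off. The groups were chosen on the 0.2 Gy ratio and left out of the fit, which favours large remainders at their probes.

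Outside the low group, the 0.2 Gy tumour had 9 probes past -0.5, between -0.62 and -0.50. They were of a mixed kind. At 5 of them both other tumours were at or below -0.1, and at 3 both were above 0. At 1 probe the other tumours had opposite signs. Their ratios ran from -0.51 to 0.19 at 0.1 Gy and from -0.67 to 0.40 at 1.5 Gy.

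Lists taken from the other arrays give a reading on the 0.2 Gy array that its own values did not choose. The 102 probes at or above 0.5 in the 0.1 Gy tumour averaged 0.75 ± 0.13 (SD over probes) at 0.2 Gy, with a lowest value of 0.28. Of these, 99 (97.1%) were at or above 0.5 there, against 1.22% of all probes, and they make up 57.6% of the 172 such probes of the 0.2 Gy tumour. The other 3 lay below that size. Of the 7 probes at or above 0.5 in the 1.5 Gy tumour, 2 were past 0.5 at 0.2 Gy, and the 7 ranged there from -0.0071 to 0.82.

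The low lists carried over far less. The 40 probes with a value on all arrays past the -0.5 limit at 0.1 Gy, with a mean of -0.56 there, averaged -0.21 ± 0.18 (SD over probes) at 0.2 Gy. Of these 36 were below 0 and 1 (2.5%) was at or below -0.5, against 0.298% of all probes there. The 37 of the 1.5 Gy tumour, with a mean of -0.67 there, averaged -0.16 ± 0.16 at 0.2 Gy. On the 0.2 Gy array 30 of them were below 0 and 2 (5.41%) at or below -0.5, against the same 0.298%. Both shares were thus above that of all probes, though far smaller than for the 0.1 Gy high list. In both lists most probes were on the low side in the 0.2 Gy tumour, and 0 of them belonged to its low group. That group holds only 0.234% of the measured probes, so a count of 0 in lists of this size says little.

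Each tumour was next set against both others, with a difference of at least 0.5 from each. The 0.2 Gy tumour was below both others at 37 of 14075 probes (0.263%), and these include all 33 low members. The same count was 7 (0.0497%) for the 0.1 Gy tumour and 42 (0.298%) for the 1.5 Gy tumour, so the 1.5 Gy tumour had slightly more such probes than the 0.2 Gy tumour. The 4 outside the low group lay between -0.60 and -0.37 in the 0.2 Gy tumour and above 0 in both others. The 0.2 Gy tumour was above both others at 12 probes (0.0853%), compared with 0 for the 0.1 Gy tumour and 3 (0.0213%) for the 1.5 Gy tumour. Of the 12, 8 belonged to the high group and ranged from 0.51 to 1.03 in the 0.2 Gy tumour, with medians of 0.23 and 0.11 in the 0.1 and 1.5 Gy tumours. The other 4 lay from -0.020 to 0.34 in the 0.2 Gy tumour, and at or below -0.18 in both others. Of these, feature numbers 10114 (0.298) and 1025 (0.341) lay above the 99th percentile of the probes in neither group at 0.2 Gy (0.287). Set against the 1.5 Gy tumour alone, the 0.2 Gy tumour was higher by 0.5 or more at 141 probes, and against the 0.1 Gy tumour alone at 26.

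A fit across all probes asked which of them differ between the 0.2 Gy array and the mean of the other 2 (limma, 2-sided, Benjamini-Hochberg adjusted p under 0.05). It called 35 of 14075 probes lower (0.249%) and 8 higher (0.0568%). Among the lower calls were 32 of the 33 members of the low group. Among the higher calls were 6 of the 179 members of the high group, whose mean difference from the other arrays was 0.36 against -0.84 for the low group. The groups were chosen on the 0.2 Gy array, so these counts describe them and do not test them. The 2 lowest probes, picked for their 0.2 Gy ratio, differed from the mean of the other arrays by -0.92 (feature number 10332) and -1.02 (8207). The 2 highest differed by 0.45 (feature number 35) and 0.34 (8165). The spread came from 2 arrays of different dose, with 1 residual degree of freedom pooled over probes, and the single 0.2 Gy array is assumed to vary like them. When each array was first divided by its robust SD, the calls were 40 lower and 78 higher, so the balance of higher and lower calls depends on that scaling.

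The members of both groups were spread over the numbering of the array. In 4 successive blocks of 3528 probes by feature number, the low group had 6, 9, 7 and 11 members and the high group 47, 44, 39 and 49. No 2 members of either group had neighbouring numbers (0 pairs in each group). Groups this small would hold few such pairs in any case, so these counts of 0 say little. How feature numbers map to the genome was not analysed here.

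All members of both groups had a value on all 3 arrays. Of the 14 probes without a value on the 0.2 Gy array, 9 had one on both other arrays. The values of the 14 on the other arrays lay between -0.20 and 0.22. In the other direction, 23 probes with a value here lacked one elsewhere, and their 0.2 Gy ratios ran from -0.47 to 0.33. None of these reached 0.5 in size (0 on either side).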

How the data were processed

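Per the labels' protocols, ear DNA carried Cy3 and tumour DNA Cy5 on all 3 arrays, after digestion with AluI and RsaI. The submitters' processing notes name Agilent Feature Extraction 9.5.1. For each probe and array the authors deposited 1 log ratio, read here as log2. Background correction, dye normalisation and log base: not given in the sources used here. Median ratios of the authors' deposited arrays were -0.0087, 0.0021 and 0.0046 for the 0.1, 0.2 and 1.5 Gy tumours, so the deposited log2 ratios already lay close to 0 at the median. The table had 0 columns of other samples.

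Each array was centred on its median. A group was called past a density minimum more than 0.3 from the median, if 20 or more probes lay there and their density peaked at no less than 1.5 times the minimum. Probes at or past 0.5 were counted. Bins of 0.1 used probes with a value on all 3 arrays. The only test was limma 3.58.1 in R 4.3.3 (lmFit, eBayes), fitted over 14075 probes. It and the density rule were also run on simulated data with known shifts. The simulated noise was normal and, for limma, independent between arrays, whereas the arrays here correlate. Those runs therefore do not show how either method performs on data like these. Python 3.11.15, numpy 2.4.6, pandas 2.3.3, scipy 1.17.1 and matplotlib 3.10.9 were used. By rule, the probes named by number are the 2 lowest and 2 highest on the 0.2 Gy array. Feature numbers 10114 and 1025 fall outside that rule and were named for their values. The groups, limits and lists were chosen with earlier results of these data known. Planned values by chromosome, at Ptch1 and over gene lists were not analysed here, for want of probe positions. A count of probes is a count of array features, some of which may share a probe. The number of arrays limits the precision.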

Additional observations from a re-analysis of the deposited data

How the results depend on the processing

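The size of the low group, and the means of the other tumours at its probes, moved little with the processing, whereas the counts of probes past a size or above both other tumours depended on the limit. With a size limit of 0.3, 243 probes of the 0.2 Gy tumour were lower and 293 higher; with a limit of 1 these were 6 and 4; and with a limit of 3 robust SDs 111 were lower. On a log10 reading, 1691 probes were lower and 1535 higher than 0.5 log2, and the groups had means of -2.97 and 2.33 log2. After removal of the part predicted from the other 2 arrays, an alternative chosen after seeing the data, 31 higher probes passed 0.5 and the high group's mean was 0.43. The probes above both other tumours rose from 12 to 41 with a difference of 0.3 and to 32 with a difference of 3 robust SD units. Leaving out 1 of the other tumours gave between 26 (1.5 Gy left out) and 141 (0.1 Gy left out) of them, and between 38 and 46 probes below. The limma count of higher probes went from 8 to 78 when the arrays were divided by their robust SD. The other 36 comparisons with an alternative (among them centring, bandwidth, medians, group limits, limma's trend and robust settings) stayed within 1.5 times for counts and within 1 SD over probes for means, and 0 reversed. Bin medians stayed within 1 SD of bin means in all 28 cases. Without 1 of the other arrays limma has no residual degree of freedom, so no such fit was made. No paired analysis was possible because there was only 1 tumour per dose, with the ear DNA of the same mouse already its reference. Without the dye intensities, signal over background could not be examined.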
